A study of Mus musculus with 68 samples.

Results

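The 10 genes described here encode the 5 subunits of the transcription factor NF-kB (Nfkb1, Nfkb2, Rela, Relb and Rel) and 5 inhibitors and regulators that act on it (Nfkbia, Nfkbib, Nfkbie, Nfkbiz and Tnfaip3). They were chosen by name, with earlier results of these data known. All 10 were found among the 13197 genes of the founder tables and the 12803 genes of the F1 tables. RNA was measured by RNA-seq in 68 libraries of primary mouse embryonic fibroblasts (MEFs), which are fibroblasts grown from mouse embryos. Of these, 40 libraries came from 8 founder strains, namely A/J (A), C57BL/6J (B6), 129S1Sv/ImJ (129), NOD/ShiLtJ (NOD), NZO/H1LtJ (NZO), CAST/EiJ (CAST), PWK/PhJ (PWK) and WSB/EiJ (WSB). The other 28 came from F1 crosses of a B6 mother with CAST, 129, NOD, NZO or WSB (xCAST, x129, xNOD, xNZO and xWSB). Cells received 2 ug/ml of tunicamycin (TM) in DMSO, or 0.1% DMSO alone (control), for 4 h. TM stops the first step of N-linked glycosylation, and it is widely used to put the endoplasmic reticulum (ER) under stress. The cells of a genotype were a mix from several female embryos of 1 litter, and no genotype carries an engineered allele. Replicates of a group were therefore cultures of 1 cell stock, and the p-values below measure the spread between such cultures. A difference between genotypes, also between a cross and its parents, cannot be told apart from a difference between stocks. A and PWK had 3 libraries of each treatment and B6 and CAST had 2. In 129, NOD, NZO and WSB there were 2 control and 3 TM libraries. x129, xNZO and xWSB had 3 of each, xCAST had 2 control and 3 TM, and xNOD had 3 control and 2 TM.

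NF-kB works as a pair of subunits. In resting cells most of it is held in the cytoplasm by inhibitors of the IkB family, until a kinase complex marks the inhibitor for destruction and the freed subunits enter the nucleus. Several genes that NF-kB turns on encode its own inhibitors, such as IkB-alpha (Nfkbia) and A20 (Tnfaip3), so that the signal limits itself. In fibroblasts NF-kB is known for turning on chemokines and other genes of inflammation, and the ER stress sensors can activate it.

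Values are the reads of a gene scaled to a common library size (TMM-scaled), not divided by gene length, and are called normalized reads below. Founder and F1 libraries were scaled separately, so levels were compared only within a set. Libraries with recovered read numbers held from 6442976 to 29528457 reads on genes. The median was lower with TM than in controls in both sets (10730220 and 14072068 in founders, 12351069 and 15266698 in F1 crosses). The 10 fibroblast markers summed to 16940 or more in every founder library and 13110 or more in every F1 library. Their median sum was 37280 in controls and 26610 with TM in founders, and 24320 and 21770 in F1 crosses. In founders the epithelial markers had medians of 54.0 in controls and 48.7 with TM, and the endothelial markers 4.31 and 5.85. The 12 of 14 myeloid markers found in the founder tables summed to between 8.53 and 75.4 in controls and between 7.44 and 62.4 with TM, with medians of 32.7 and 17.8, and their part in the results was not tested. Of the 14 markers 8 were found for the F1 crosses, with a median sum of 11.4 in controls and 7.06 with TM, and the defining markers Ptprc, Adgre1 and Itgam were not analysed there. The typical spread between replicates differed by genotype, with a median residual SD (log2) from 0.105 in B6 to 0.311 in xWSB and 0.35 in A.

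Letters that match the DNA motif of NF-kB lie close to the start of several of these genes, and these sites are shown because NF-kB is known to act on several of its own genes. RefSeq promoter windows (GRCm38.p6, from 250 bases before to 50 bases after a start) were given for 7 of the 10 genes, which had 10 windows in all. Nfkb1, Relb and Nfkbiz had no window and were not searched. The kappa B motif searched for was 3 G, then 2 bases of any kind, 3 T and 2 C, on both strands. It was found in 6 of these 10 windows, in the genes Nfkb2, Rel, Nfkbia and Tnfaip3. Overlapping windows of Nfkb2 share the site at chr19:46305695-46305724, which was counted in each of them. The motif itself was found in 1.63% of all 32851 mouse windows. A looser form, with 3 bases of any kind and 2 T in the middle, includes the first and was found in 8 windows, with Nfkbie added, and in 5.56% of all windows. Neither form was found in the windows of Rela and Nfkbib. Both forms were chosen with the expression results known. All sites of the first form and the looser site of Nfkbie are printed, and further looser sites in Tnfaip3 and Nfkb2 are left out. Each is on the strand of its gene with the motif in capitals and 10 bases on either side.
Tnfaip3, chr10:19015403-19015432, minus strand, intron: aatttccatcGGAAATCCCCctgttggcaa
Nfkbia, chr12:55492657-55492686, minus strand, outside the annotated gene: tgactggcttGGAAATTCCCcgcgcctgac
Rel, chr11:23771041-23771070, minus strand, outside the annotated gene: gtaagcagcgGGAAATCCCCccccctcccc
Nfkb2, chr19:46304716-46304745, plus strand, non-coding exon: ggggccgaaaGGGGCTTTCCcggctggagc
Nfkb2, chr19:46305695-46305724, plus strand, non-coding exon: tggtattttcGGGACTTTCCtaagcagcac
Nfkbie (looser form), chr17:45555584-45555613, plus strand, outside the annotated gene: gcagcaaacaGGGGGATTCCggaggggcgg
In Tnfaip3, Nfkbia and Rel the motif lies in the opposite orientation to the gene. The places are those of the GENCODE M21 annotation. A match describes the letters and does not show that the factor is bound.

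The first question was whether ER stress changes the RNA of these genes at all. Over the 8 founder strains, TM raised 7 of the 10 genes and lowered none, at an adjusted p under 0.01 and a change of at least 1.5 fold (limma on log2(value + 0.1), Benjamini-Hochberg over 13197 genes). By the same test 6.04% of all genes were induced. The share of all genes that were lowered was 5.41%. Over the 5 F1 crosses 8 of the 10 genes were induced and none lowered, beside 4.95% and 5.54% of all genes. Since the 10 genes were chosen with earlier results known, these counts beside the shares are descriptions only. The largest mean response was that of Tnfaip3, at 1.96 ± 0.06 (log2, SE) or 3.89 fold in founders. Nfkbia followed with 1.54 ± 0.05 and Relb with 1.43 ± 0.06. The F1 crosses gave 1.93 ± 0.06, 1.55 ± 0.05 and 1.37 ± 0.07 for these 3 genes in the same order. At the other end, Rela and Nfkbib stayed under 1.5 fold in both sets.

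**Figure D1:**
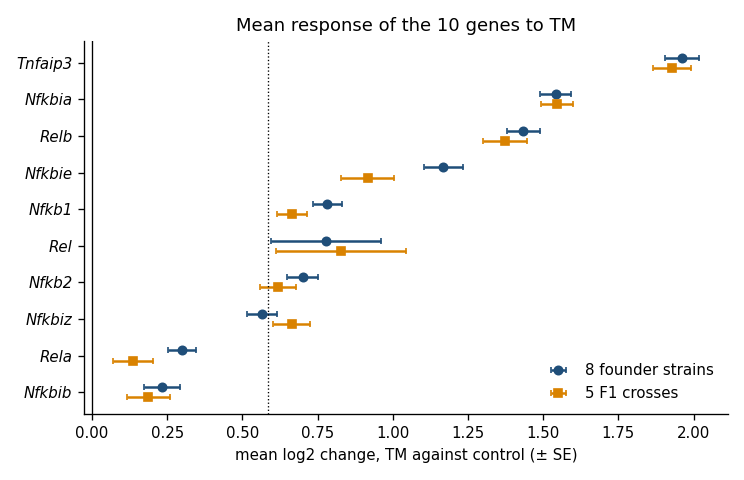
Mean log2 change with TM (x axis) of each of the 10 genes (y axis) over 8 founder strains (circles) and 5 F1 crosses (squares), with error bars of 1 SE from the model and a dotted line at 1.5 fold. The genes run from Tnfaip3 at 1.96 down to Nfkbib at 0.23 in founders, and 7 founder and 8 F1 points lie to the right of the dotted line.

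Among the subunits, Relb responded most. Relb (ENSMUSG00000002983, GRCm38 chr7:19606217-19629438, minus strand) encodes the subunit of the slower, non-canonical branch of NF-kB signalling. Its control libraries in B6 gave 23.1 and 21.2 normalized reads, and its TM libraries 63.6 and 50.1. In PWK the controls gave 26.2, 21.7 and 19.0 and the TM libraries 85.3, 80.7 and 84.4. In every one of the 13 genotypes each TM library lay above each control library of the same genotype. The change ran from 2.05 fold in 129 to 3.77 fold in PWK among founders, and from 2.33 fold in x129 to 3.18 fold in xCAST among crosses. The controls of A (35.1 ± 6.72, SD, n = 3) were above those of the other founders, whose means lay between 21.9 and 25.1, but the founder controls did not differ past the threshold (adjusted p = 0.021 by limma's F test).

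The precursor subunits rose less. Nfkb1 (ENSMUSG00000028163, chr3:135584655-135691547, minus strand) encodes p105, the precursor of the p50 subunit, and Nfkb2 (ENSMUSG00000025225, chr19:46304320-46312385, plus strand) encodes p100, the precursor of p52. Uncut, both precursors also hold other subunits in the cytoplasm. The mean response of Nfkb1 was 0.78 ± 0.05 in founders (adjusted p = 4.47e-14, limma) and 0.66 ± 0.05 in crosses. That of Nfkb2 was 0.70 ± 0.05 and 0.62 ± 0.06. In NOD, the strain with the largest change, the Nfkb1 controls were 71.5 and 88.1 and the TM libraries 161.6, 165.0 and 170.6. In 129, the strain with the smallest, the controls were 91.9 and 92.0 and the TM libraries 100.0, 121.7 and 135.4. For both genes the TM libraries lay above the controls in 13 of 13 genotypes, also where the change was small. Nfkb2 shares 299 of its 4584 exon bases with Psd and 531 with a non-coding gene, both on the opposite strand, and reads from the shared bases cannot be told apart without strand.

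Rela (ENSMUSG00000024927, chr19:5637483-5648130, plus strand) encodes p65, the subunit that carries the main activating domain of the canonical pair. It changed by 0.30 ± 0.05 in founders (adjusted p = 2.23e-06, limma), which is 1.23 fold, and by 0.14 ± 0.07 in crosses (adjusted p = 0.0913). Its B6 controls were 104.3 and 110.7 and its B6 TM libraries 127.0 and 124.7. In xNOD the controls were 104.9, 93.5 and 94.2 and the TM libraries 119.1 and 93.4. TM and control libraries overlapped in 1 of 8 founder strains (129) and in 4 of 5 crosses. No genotype passed 1.5 fold, and the largest change was 1.45 fold in A.

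Rel (ENSMUSG00000020275, chr11:23736847-23770970, minus strand) encodes c-Rel, a subunit best known from lymphocytes, and was the scarcest of the 10. Its libraries held between 7 and 170 reads, where Rela held at least 698. The mean response was 0.78 ± 0.18 in founders (adjusted p = 0.000676, limma) and 0.83 ± 0.22 in crosses (0.00302). The crosses fell short of the threshold without xCAST control replicate 2 (0.76, adjusted p = 0.0112). In A the TM libraries ranged from 2.72 to 14.6 while the controls ranged from 3.32 to 4.74. In WSB the controls were 2.85 and 3.24 and the TM libraries 3.52, 2.96 and 2.14, so that the groups overlapped. TM and control libraries overlapped in 4 of 8 founder strains and 2 of 5 crosses.

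Among the inhibitors, Tnfaip3 and Nfkbia stood first. Tnfaip3 (ENSMUSG00000019850, chr10:19000910-19015657, minus strand) encodes A20, an enzyme that edits ubiquitin chains on signalling proteins and so shuts the kinase complex off. In B6 its controls were 23.1 and 24.7 and its TM libraries 95.0 and 82.9. In PWK the controls were 34.6, 31.3 and 31.3 and the TM libraries 187.7, 209.3 and 210.4. In 129 the controls were 72.0 and 81.4 and the TM libraries 118.9, 149.3 and 163.3. All TM libraries exceeded all controls of their genotype in 13 of 13 genotypes. The controls of 129, however, were nearly as high as the TM libraries of B6.

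Nfkbia (ENSMUSG00000021025, chr12:55489410-55492647, minus strand) encodes IkB-alpha, the inhibitor that is destroyed and made again in each round of canonical signalling. Its controls in B6 were 21.2 and 20.3 and its TM libraries 69.5 and 56.8. In A the controls were 48.0, 33.4 and 35.3 and the TM libraries 138.6, 158.4 and 158.8. In CAST the controls were 33.9 and 32.2 and the TM libraries 65.2 and 71.2. The groups were separate in every genotype, and the change ran from 1.99 fold in 129 to 3.94 fold in A and 4.47 fold in xCAST.

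**Figure D2:**
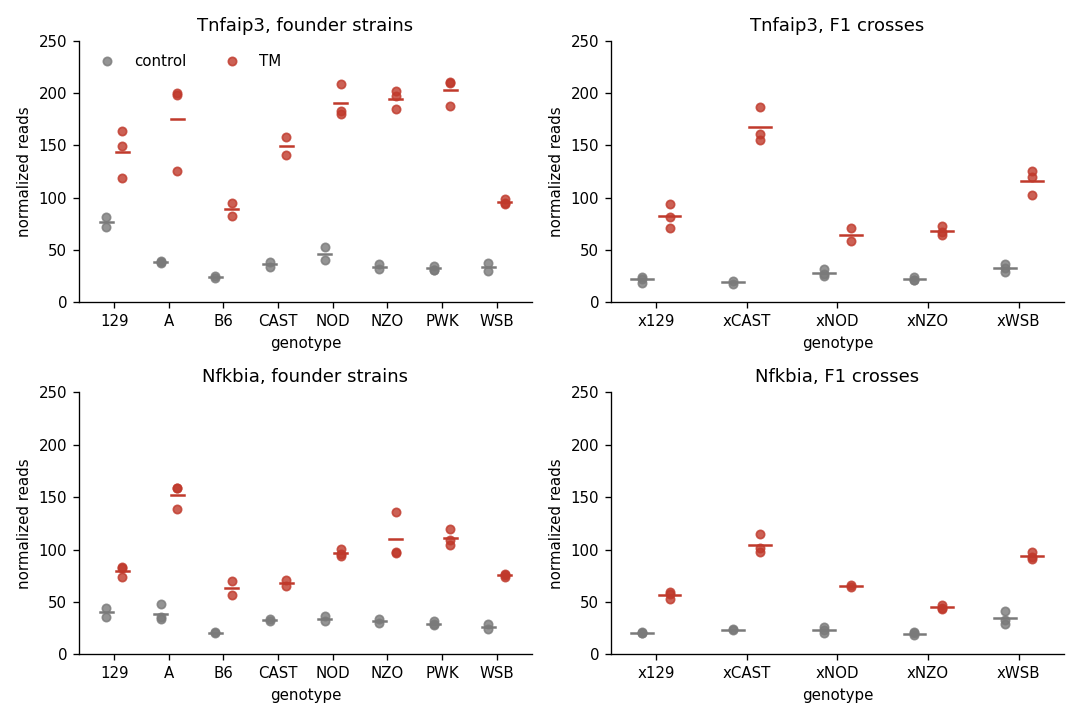
Normalized reads (y axis, from 0) of Tnfaip3 (top) and Nfkbia (bottom) in every founder (left) and F1 (right) library by genotype (x axis), with controls in grey, TM in red and a bar at each mean. TM points lie above the control points of the same genotype in all 13 genotypes, and the Tnfaip3 controls of 129 (72.0 and 81.4) lie above those of the other founders.

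Nfkbie (ENSMUSG00000023947, chr17:45555703-45563169, plus strand), which encodes IkB-epsilon, rose by 1.17 ± 0.07 in founders (adjusted p = 3.11e-15, limma) and 0.92 ± 0.09 in crosses (1.35e-08). Its NOD controls were 3.97 and 4.86 and its NOD TM libraries 13.4, 12.8 and 12.6, the largest change among founders at 2.90 fold. Its level was low, with between 23 and 376 reads in a library, but its groups were separate in all 13 genotypes. Nfkbiz (ENSMUSG00000035356, chr16:55811375-55838899, minus strand) encodes IkB-zeta, a nuclear member of the family that helps activate some NF-kB targets. It changed by 0.57 ± 0.05 in founders, or 1.48 fold, just under the 1.5 fold limit (adjusted p = 7.31e-11), and by 0.66 ± 0.06 in crosses, just over it (7.81e-09). Without A TM replicate 2 the founder value was 0.59, over the limit. Its groups too were separate in all 13 genotypes.

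Nfkbib (ENSMUSG00000030595, chr7:28758251-28767512, minus strand), which encodes IkB-beta, was the inhibitor that moved least. Its mean change was 0.23 ± 0.06 in founders (adjusted p = 0.00193, limma) or 1.17 fold, and 0.19 ± 0.07 in crosses (0.034). In NZO the controls were 29.5 and 31.8 and the TM libraries 29.7, 30.2 and 32.8. The groups overlapped in 5 of 8 founder strains and 3 of 5 crosses, and no genotype passed 1.5 fold. It shares 314 of its 2169 exon bases with Ccer2 and 42 with Sirt2 on the opposite strand.

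The levels of the 10 genes were compared per kilobase of exon, since the values are not divided by length. In founder controls Rela was highest, at a median over strains of 34.8 normalized reads per kilobase, followed by Nfkbia with 20.2, Nfkb2 with 16.6 and Nfkbib with 13.4. Tnfaip3 stood at 4.88 and Rel was lowest at 0.466. With TM the order of the medians changed, and Nfkbia came first at 54.9, ahead of Rela at 41.0, Nfkb2 at 26.8 and Tnfaip3 at 22.4. The strain means with TM ran from 39.2 to 94.4 for Nfkbia and from 33.73 to 48.95 for Rela. The crosses gave Rela 30.6 and Nfkbia 14.4 in controls and Nfkbia 40.3 and Rela 33.5 with TM. Rela stayed ahead of Nfkbia with TM in B6, WSB and xNZO. These levels rest on the union of annotated exons, which for Nfkb1 (12061 bases) is long, and were not measured per isoform.

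Next, each genotype was tested on its own. The number of the 10 genes called induced was 2 in A, 7 in B6, 0 in 129, 7 in NOD, 1 in NZO, 4 in CAST, 7 in PWK and 3 in WSB. The share of all genes called induced in these strains was, in the same order, 0.346%, 5.04%, 0.315%, 1.45%, 0.32%, 2.54%, 6.36% and 2.85%. In the crosses the number was 7 in xCAST, 6 in x129, 3 in xNOD, 3 in xNZO and 1 in xWSB, and the share of all genes was 2.52%, 4.88%, 3.69%, 1.44% and 0.185%. The 4 genotypes with 2 calls or fewer (A, 129, NZO and xWSB) also had the 4 lowest shares among all genes. The counts of single genotypes leaned on single libraries, and in NZO 8 members were called without TM replicate 3. They also leaned on the model of the spread, since with no trend in the prior variance 0 members were called in B6, 3 in NOD, 1 in CAST, 0 in WSB, 0 in xNOD and 0 in xWSB. In 129 both limma and edgeR's quasi-likelihood test called 0 members, while 4 had an unadjusted p under 0.05 in limma. There Tnfaip3 (0.90 ± 0.18, adjusted p = 0.0513), Nfkbia (0.99 ± 0.16, 0.0329) and Relb (1.03 ± 0.16, 0.0293) all lay above 1.5 fold. For counts with a library left out, with no trend or at an unadjusted p, the share of all genes is not given. Those counts are descriptions only.

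These 4 genotypes also had the 4 largest median residual SDs. When the spread was shared over all libraries of a set, Tnfaip3, Nfkbia and Relb were induced in 8 of 8 founder strains and 5 of 5 crosses. The highest adjusted p among the founder strains was then 0.000291 for Tnfaip3, 7.4e-05 for Nfkbia and 0.000119 for Relb. In that fit the share of all genes induced was 4.2% in A, 1.92% in B6, 3.29% in 129, 1.85% in NOD, 3.4% in NZO, 1.7% in CAST, 4.49% in PWK and 5.21% in WSB. In the crosses it was 3.89% in xCAST, 3.19% in x129, 4.25% in xNOD, 2.62% in xNZO and 3.02% in xWSB. Nfkb1 and Nfkb2 were each induced in 6 founder strains, Nfkbie in 6, Nfkbiz in 4, and Rela, Nfkbib and Rel in 0. Every TM library lay above every control for 9 of the 10 members in A (10.5% of all genes), 10 in B6 (32.6%), 7 in 129 (22.9%), 9 in NOD (18.4%), 9 in NZO (19.3%), 9 in CAST (28.7%), 8 in PWK (21.7%) and 9 in WSB (25.7%). In crosses this held for 10 members in xCAST (21.1%), 8 in x129 (21.8%), 8 in xNOD (27.8%), 8 in xNZO (16.4%) and 7 in xWSB (9.9%). In xWSB the 3 same-numbered pairs of control and TM libraries deviated together, as did both such pairs of NZO. With the replicate number as a block the 1 call in xWSB, Tnfaip3, was lost (adjusted p = 0.011, limma, against 0.0039 without the block).

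**Figure D3:**
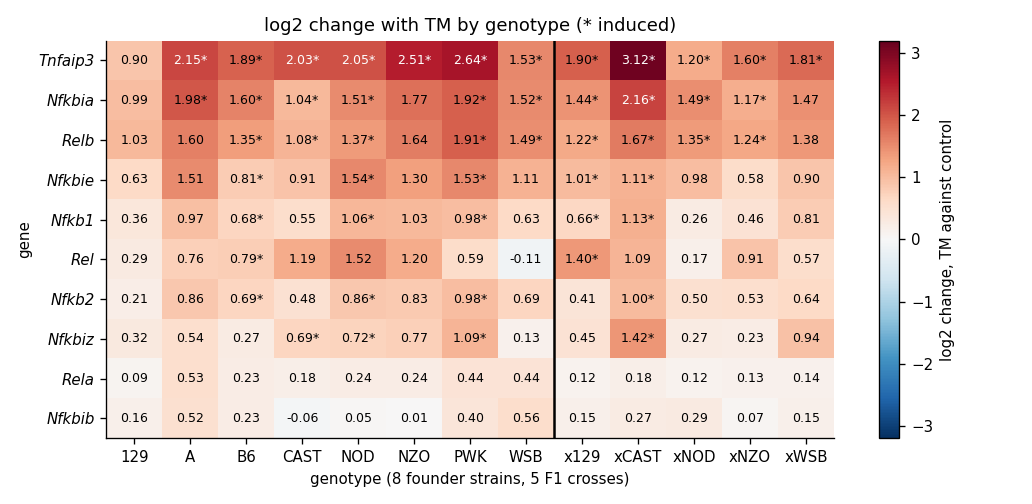
The log2 change with TM for each of the 10 genes (rows) in each of the 13 genotypes (columns, founders left of the line and crosses right), written in each cell and coloured on a scale from blue (lower) to red (higher), with a star where the gene was called induced in the fit of that genotype. Tnfaip3, Nfkbia and Relb are positive in every column, from 0.90 for Tnfaip3 in 129 to 3.12 in xCAST.

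The study asked how far the response depends on the strain, so the differences between responses were tested next. Each strain or cross was 1 cell stock, so genotype and stock cannot be told apart in these tests. Only Tnfaip3 passed the test of the strain by treatment interaction among founders (adjusted p = 0.000443, limma's F test over 13197 genes), where 0.174% of all genes passed. Nfkbia was nearest to it at 0.0469, then Nfkbiz at 0.115. Among crosses again only Tnfaip3 passed (0.000179), where 0.0547% of all genes passed, and Nfkbiz followed at 0.0174. The response of Tnfaip3 was lowest in 129 (0.90 ± 0.18) and WSB (1.53 ± 0.16), lay between 1.89 and 2.15 in B6, CAST, NOD and A, and was highest in NZO (2.51 ± 0.13) and PWK (2.64 ± 0.09). Measured against the mean control of their own strain, the TM libraries of 129 did not overlap those of WSB, nor those of WSB with B6. Neighbours from B6 to A overlapped, A and NZO did not, and NZO and PWK did. The founder interaction rested on the ends of this order, since it did not pass without 129 (adjusted p = 0.126) or without PWK (0.022), and passed without each of the other 6 strains. Leaving out strains was decided after the values were seen. With the replicate number as a block the founder interaction of Tnfaip3 did not pass (adjusted p = 1.00, limma's F test). That fit gives each replicate number of a strain its own term, so few libraries are left to measure the spread. A library without a same-numbered partner adds nothing there. This fit therefore cannot decide whether the responses differ.

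In the crosses the order for Tnfaip3 ran from xNOD (1.20 ± 0.15) through xNZO (1.60 ± 0.10), xWSB (1.81 ± 0.18) and x129 (1.90 ± 0.13) to xCAST (3.12 ± 0.16). The TM libraries of xCAST, at 186.9, 154.7 and 160.7 against controls of 18.0 and 20.2, lay apart from all others. Without xCAST the interaction did not pass (adjusted p = 0.603), and without xCAST control replicate 2 it fell just short at 0.0107. With the replicate number as a block it did not pass either (0.145), in a fit with the same limit as in founders.

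A further test followed the form of that in the study's methods, an analysis of variance. Here it was limma's moderated F test, which shares the spread between genes, adjusted over all 13197 genes and not over those the study selected. It compares the log2 ratio of each TM library to the median control of its strain and takes that control as free of error. By it 6 of the 10 genes differed between founder strains (Nfkb2, Relb, Nfkbia, Nfkbie, Nfkbiz and Tnfaip3). Of all genes 3.46% passed. Of these 6, Tnfaip3 alone passed the interaction test, which includes the error of the controls. The other 4 genes had adjusted p from 0.0195 for Nfkb1 to 0.348 for Rel.

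The order of strains also depended on the scale. On the scale of the values, the Tnfaip3 level with TM was above control by 67.1 ± 13.9 (difference of means, SE) normalized reads in 129, by 65.0 ± 6.09 in B6 and by 62.5 ± 4.21 in WSB. As a fold change these were 1.86 in 129, 3.70 in B6 and 2.88 in WSB. The strain with the smallest fold was thus not the strain with the smallest difference. In PWK it was above by 170.1 ± 7.45 and in NZO by 160.4 ± 5.72, the 2 largest on both scales. Differences between strains on this scale were not tested.

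Control levels were compared between founder strains as the base on which these changes stand. They differed for Nfkb2, Nfkbia, Nfkbie, Nfkbiz and Tnfaip3 (limma's F test), which is 5 of 10, where 35.8% of all genes did. Tnfaip3 ranged from 23.9 ± 1.14 (SD, n = 2) in B6 to 76.7 ± 6.61 (n = 2) in 129, a ratio of 3.21 (adjusted p = 1.76e-05). Between these ends, PWK, WSB, NZO, CAST and A lay from 32.4 to 38.5, each overlapping its neighbour, and NOD at 46.3 ± 8.59 overlapped none. Nfkbiz ranged from 24.5 ± 1.46 (n = 3) in PWK to 54.9 ± 1.10 (n = 2) in 129. Nfkbia ranged from 20.7 ± 0.64 in B6 to 40.2 ± 5.93 in 129, and the 129 libraries overlapped those of A. B6 had the lowest control level of Tnfaip3, Nfkbia and Nfkb2 among founders, and 129 the highest of Tnfaip3, Nfkbia and Nfkbiz. With TM the highest mean was in A for Nfkbia (151.9 ± 11.5, n = 3) and Nfkb2 (212.3 ± 20.6), and these libraries overlapped no other strain. For Tnfaip3 it was in PWK (202.5 ± 12.8), where the libraries of NZO, NOD and A overlapped it. For Nfkbiz it was in NZO (69.9 ± 4.19), overlapped by NOD, 129 and A.

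In the crosses the control level differed for Nfkb1, Nfkbia, Nfkbiz and Tnfaip3, 4 of 10, where 21.4% of all genes differed. xWSB had the highest control mean of all 4. Its Nfkb1 controls were 85.6, 92.7 and 97.5, and those of the other crosses lay between 54.4 and 71.0. Its Nfkbia controls were 41.5, 32.8 and 28.5, above all those of the other crosses. Only 2 of the 4 genes differed without xWSB control replicate 2.

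Each cross was set beside its parents by the log2 change within its own set, and differences across the sets were not tested. The share of all genes beyond the combined SE was not computed, so the counts beyond it are descriptions only. In xCAST, 8 of the 10 genes had a larger change than in both B6 and CAST, as did 32.4% of all genes, and 6 of the 8 lay beyond the combined SE of the cross and the nearer parent. Tnfaip3 changed by 3.12 ± 0.16 in xCAST, by 1.89 ± 0.10 in B6 and by 2.03 ± 0.13 in CAST. Nfkbia changed by 2.16 ± 0.15, 1.60 ± 0.11 and 1.04 ± 0.13 in the same order. Nfkbiz changed by 1.42 ± 0.16, 0.27 ± 0.10 and 0.69 ± 0.12. In xNZO 8 of the 10 genes had a smaller change than in both parents (35.4% of all genes), 4 of them beyond the combined SE, with Tnfaip3 at 1.60 ± 0.10 beside 1.89 ± 0.10 in B6 and 2.51 ± 0.13 in NZO. In xNOD 6 genes lay below both parents (48.6% of all genes), 4 of them beyond the combined SE, and 1 lay above. x129 had 4 above (37.0% of all genes), 1 of them beyond the combined SE, 1 below and 5 between, and its Tnfaip3 change was 1.90 ± 0.13 beside 1.89 ± 0.10 in B6 and 0.90 ± 0.18 in 129. In xWSB 2 lay above (31.9% of all genes), 1 of them beyond the combined SE. Another 4 lay below (35.1% of all genes), none of these 4 beyond the combined SE, and 4 between.

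**Figure D4:**
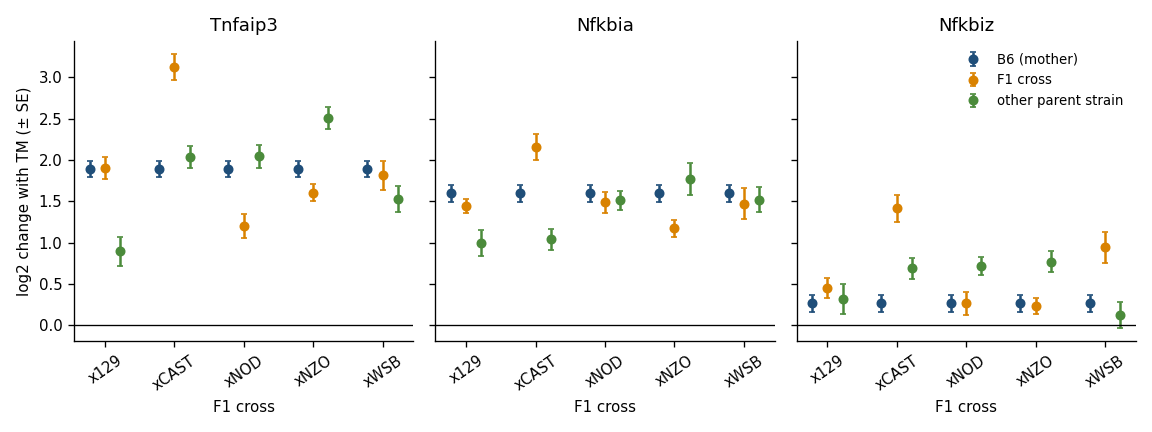
The log2 change with TM (y axis, error bars of 1 SE) of Tnfaip3, Nfkbia and Nfkbiz in each F1 cross (orange) beside B6 (blue, the same value in every column) and the other parent strain (green). In the xCAST column of each panel the cross lies above both parents, at 3.12 for Tnfaip3, 2.16 for Nfkbia and 1.42 for Nfkbiz.

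Across the 8 founder strains the changes of some members were alike and those of others were not. The log2 changes of Nfkbia correlated with those of Relb at Pearson r = 0.93, of Nfkb2 at 0.90 and of Nfkb1 at 0.82 (8 strains). Those of Tnfaip3 correlated with Nfkb2 at 0.84, with Nfkb1 at 0.83 and with Nfkbia at 0.71. Lower values were those of Nfkbia with Nfkbib (0.54), Nfkbiz (0.36) and Rel (0.05), and of Tnfaip3 with Nfkbib (-0.06). The median over the 1074 other genes induced in at least 1 founder strain was 0.19 for Nfkbia, 0.10 for Tnfaip3 and 0.22 for Relb. The points of a pair come from the same libraries, so these values are descriptions. Among these 1074 genes the pattern most like that of Nfkbia was that of Lif (r = 0.94), a cytokine, then Abcb1b (0.93), a drug efflux pump, and Btg2 (0.93), which restrains growth. Relb was most like Lif (0.95), Rnf19a (0.95) and Btg2 (0.93). Tnfaip3 was most like Plekhh1 (0.97), Cwc22 (0.96), a splicing factor, and Il1rl2 (0.95), a receptor for cytokines of the interleukin family.

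The rest of the pathway was described by lists, with the mean response over founders and the same threshold. The lists were drawn up with earlier results of these data known, so their counts beside all genes are descriptions only. Of 19 NF-kB target genes measured in founders, 17 were induced and 0 lowered, where 6.04% of all genes were induced and 5.41% lowered. The median change of the list was 1.55, beside -0.04 over all genes. The chemokine genes Cxcl2 (5.37 ± 0.17), Ccl20 (4.91 ± 0.13) and Cxcl1 (4.10 ± 0.07) changed most. Icam1, an adhesion molecule of leukocyte traffic, rose by 0.87 ± 0.11, while Csf1 changed by 0.31 ± 0.04 and Sod2, the mitochondrial superoxide dismutase, by -0.18 ± 0.05, both short of 1.5 fold. In crosses 12 of 18 targets were induced, where 4.95% of all genes were, and the list median was 1.04. Icam1 was not among the induced targets there (0.54 ± 0.17, adjusted p = 0.0126, limma).

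Of 22 kinases and adaptors upstream of NF-kB, 1 was induced in founders and 1 in crosses, near the 6.04% and 4.95% of all genes, and none was lowered in either. In founders 8 of the 22 had an adjusted p under 0.01 at any fold (limma). The share of all genes at any fold is not given, so this count is a description only. The induced gene was Birc2 in both sets, which encodes the ubiquitin ligase cIAP1, with 0.90 ± 0.06 in founders and 0.90 ± 0.06 in crosses. Map3k14, the kinase NIK of the non-canonical branch, changed by 0.51 ± 0.06 and Traf2, an adaptor of the tumour necrosis factor receptors, by 0.50 ± 0.05, both under 1.5 fold. Irak1 (-0.27 ± 0.10), Tradd (-0.31 ± 0.11) and Traf5 (-0.47 ± 0.08) had the lowest values. The median of the list was 0.00, beside -0.04 over all genes.

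Of 10 receptors that signal to NF-kB, 2 were induced in founders and in crosses, beside 6.04% and 4.95% of all genes. These were Tlr2 (2.63 fold in founders), which senses bacterial lipoproteins, and Cd40 (0.78 ± 0.09). Il1r1 changed by 0.37 ± 0.07, Tnfrsf1b by -0.21 ± 0.06 and Tnfrsf1a, the main tumour necrosis factor receptor, by -0.28 ± 0.04, all under 1.5 fold. Tlr4, the endotoxin receptor, was lowered in founders (-0.66 ± 0.20, adjusted p = 0.00771, limma), where 5.41% of all genes were lowered. The median myeloid marker sum there was 32.7 in controls and 17.8 with TM, and the fibroblast sum 37280 and 26610. In single strains the change of Tlr4 ranged from -2.17 to 0.49. In crosses it gave -0.54 ± 0.31 (0.164).

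Of 15 other inhibitors, 4 were induced in founders, beside 6.04% of all genes, with a list median of 0.30. These were Bcl3 (1.16 ± 0.12), a nuclear IkB protein, Zc3h12a (0.90 ± 0.05), an RNase that destroys cytokine mRNAs, Cyld (0.88 ± 0.05), an enzyme that removes ubiquitin chains, and Nkrf. Otud7b (0.06 ± 0.06), Rnf11 (0.00 ± 0.09) and N4bp1 (-0.06 ± 0.05) had the smallest changes. In crosses the same 4 and Nfkbil1 were induced, beside 4.95% of all genes. The medians of the 5 subunits and of the 5 inhibitors among the members were 0.78 and 1.17 in founders. All of these lists were drawn up with earlier results of these data known.

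**Figure D5:**
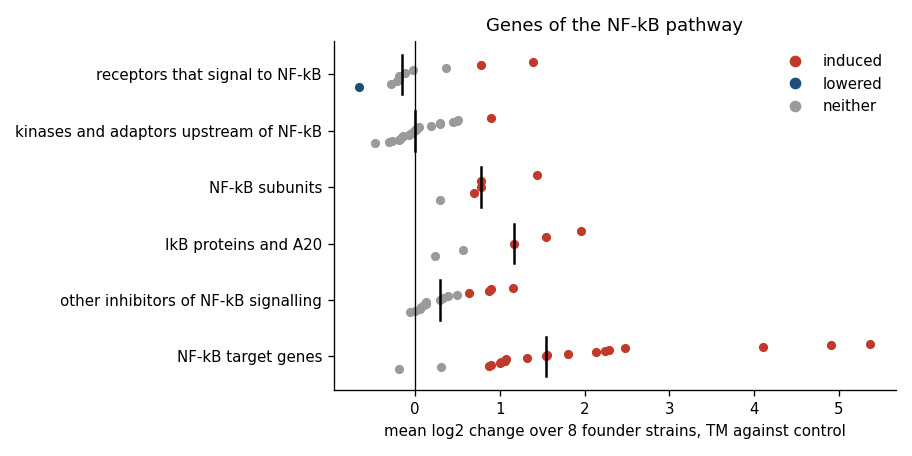
Mean log2 change with TM over the 8 founder strains (x axis) of every measured gene in the 6 lists of the NF-kB pathway (y axis), with induced genes in red, lowered in blue, others in grey and a black bar at each list's median. The receptors and the kinases and adaptors centre near 0, with medians of -0.15 and 0.00, while the target genes reach 5.37 (Cxcl2) around a median of 1.55.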

How the data were processed

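RNA of 68 MEF libraries was sequenced as single-end 100-base reads. Per the study's methods, reads were aligned to strain-specific genomes with TopHat 1.4.1, libraries were normalized with TMM in edgeR, libraries that did not group with their condition were removed, and the rest were normalized again. The authors call the deposited values FPKM, but every deposited value was a whole multiple of 1 step per library (100.0% of values, tolerance 0.01 of a step), so it is a TMM-scaled signal (reads scaled to a common library size, not divided by length), and the tests written for normalized values were kept. Read numbers were recovered in 66 libraries. In 1 TM library each of PWK and WSB they were not, and these 2 stayed out of tests on reads. The values of these libraries too were whole multiples, of steps of 0.1008 and 0.1005. The F1 tables also held 3 lines for reads assigned to no gene (15.5% to 24.1% of the total), which were left out. Strand-specific counting is not stated in the sources used here.

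Values were tested on log2(value + 0.1) with limma 3.58.1 (R 4.3.3, eBayes with trend) on every gene that reached 0.5 in 2 or more of the libraries fitted, and p-values were adjusted over all genes tested. The pseudocount understates changes of low genes. Genes were induced at an adjusted p under 0.01 and at least 1.5 fold, and F tests were called at an FDR of 1%. edgeR 4.0.16 (quasi-likelihood) on the recovered reads was added after the data were seen. It called 774 genes induced on the mean over founders and 710 over crosses. Python 3.11.15 with numpy 2.4.6, pandas 2.3.3 and matplotlib 3.10.9 was used otherwise, and the fits were tested on simulated data. Positions are from GENCODE M21 (GRCm38), and 13197 of 13378 gene IDs had a symbol there. The members and lists were chosen with earlier results of these data known. Named besides the 10 members are the 3 highest and 3 lowest genes of each list by mean founder response, genes that make up a small count, and for Nfkbia, Tnfaip3 and Relb the 3 genes with the most similar founder changes. Other settings tried are given in the closing section.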

Additional observations from a re-analysis of the deposited data

Results flagged for a closer look

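The response of Tnfaip3 to TM differed between the founder strains by the test of the interaction itself (adjusted p = 0.000443, limma's F test over all genes). It also differed between the F1 crosses (adjusted p = 0.000179). No other member passed this test in either set. Each genotype was 1 cell stock, so these differences cannot be told apart from differences between stocks. With the replicate number as a block Tnfaip3 passed in neither set, with an adjusted p of 1.00 in founders and 0.145 in crosses (limma's F test). The block leaves few libraries to measure the spread, so that fit cannot decide whether the responses differ. By edgeR's quasi-likelihood test on recovered reads Tnfaip3 passed in both sets as well, with adjusted p-values of 0.00167 in founders and 0.000329 in crosses. Groups held 2 or 3 libraries, so single libraries were not tested for standing apart.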

How the results depend on the processing

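With a pseudocount of 1, no filter, a mean of at least 2, median-of-ratios scaling, an unmoderated F test or edgeR on reads, no count of members called moved by over 1.5 times. With 1 fit over a set, the members induced were 6 in A, 3 in 129, 7 in NZO, 6 in WSB and 7 in xWSB. With no trend in the prior variance they were 0 in B6, 3 in NOD, 1 in CAST, 0 in WSB, 0 in xNOD and 0 in xWSB. Of 29 same-numbered pairs of control and TM libraries 9 had a correlation over 0.1. Of 29 controls 10 correlated best with their own number, so the number was not taken as a pairing in the main fits. Besides the xWSB pairs, both NZO pairs had a correlation over 0.1 (0.233 and 0.255). In xWSB, control 2 correlated better with TM 3 (0.281) than with TM 2 (0.183). With the replicate block the members induced were 0 in A, 3 in 129, 5 in NZO and 0 in xWSB, and 0 members passed the interaction in founders (Tnfaip3 1.00) and 0 in crosses (Tnfaip3 0.145). B6 and CAST could not be fitted on their own with the block. The block leaves few libraries to measure the spread, so a call lost with it cannot show that a response or a difference is absent. Leaving out 1 library in turn gave 0 to 1 members induced in A, 4 to 6 in B6 (4 without control 3 or TM 1), 0 to 2 in 129 (2 without TM 3), 2 to 8 in NOD (at most 3 without any 1 TM library), 0 to 8 in NZO (8 without TM 3, otherwise 0), 3 to 7 in CAST (7 without control 3), 4 to 8 in xCAST (4 without control 2 or TM 1), 0 to 3 in xNOD (0 without any 1 control), 1 to 3 in xNZO (1 without TM 1 or TM 3) and 0 to 2 in xWSB (2 without control 1, 0 without control 2, control 3, TM 2 or TM 3). The interaction was passed by 0 to 2 members in founders (2 without A control 1, 0 without the strain 129 or PWK) and by 0 to 2 in crosses (2 without xNOD TM 2 or xWSB control 1, 0 without xCAST control 2 or the cross xCAST). The control level differed in crosses for 2 to 4 members (2 without xWSB control 2). The mean response of Rel in founders was not called with the block (0.72, adjusted p = 0.0189 by limma). Values that changed sign when 1 library was left out were not called in any of these fits, namely Rela in 129 (-0.0238 to 0.168) and xNOD (-0.0599 to 0.291), Rel in 129 (-0.209 to 0.740), WSB (-0.263 to 0.0844), xNOD (-0.163 to 0.498, also -0.12) and xWSB (-0.0836 to 0.956), and Nfkbib in NOD (-0.00502 to 0.0979), NZO (-0.0422 to 0.0648, also -0.03) and xNZO (-0.0407 to 0.134). Over all genes, limma and edgeR called 41 and 21 induced in NZO and 361 and 153 in WSB, where edgeR had 1 TM library fewer. The causes of these changes were not tested. The share of all genes with no trend, with the replicate block or with libraries left out is not given. Those counts of members are descriptions only. Rel had the fewest reads of the members, with as few as 7 in a library.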
